A study of Mus musculus with 16 samples.

Results

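Heat shock proteins and chaperonins were examined in the medial prefrontal cortex (mPFC) of stressed mice. The genes were those whose array symbol begins with Hspa, Hspb, Hspd, Hspe, Hsph, Hsp90, Dnaja, Dnajb or Dnajc, together with Tcp1 and the Cct genes that carry a subunit number. They numbered 74 of the 16593 named genes on the Illumina MouseRef-8 array and were read by 102 probes. Of the 74 genes, 54 had a probe detected on every array and were tested among 8419 genes. Hspbp1 and Hspbap1, which encode partners of heat shock proteins rather than heat shock proteins, met the symbol rule and were kept. Hsp90ab1, Hspa1b and Dnajb11 were not analysed here.

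Male C57BL/6 mice (C57BL/6 J in the study's methods) were exposed to chronic social defeat by aggressive CD-1 mice and then sorted by a social interaction test into susceptible mice, which avoided a new CD-1 mouse, and resilient mice, which did not. Mice with intermediate scores were left out by the study, and the control mice were not stressed. The left and right mPFC were measured on 3 arrays per side in susceptible mice, 3 per side in resilient mice and 2 per side in control mice. The labels give 7 mice per group. For control and resilient mice the study's text differs from the labels in this number. RNA of the mice was pooled before hybridization, so the p values below measure the spread between arrays and not between mice.

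Chaperones bind proteins that are unfolded or newly made and help them to fold. Hsp70 proteins (Hspa genes) hold short exposed stretches of a client protein, J-domain proteins (Dnaj genes) deliver clients to Hsp70 and drive its ATPase, and Hsp110 proteins (Hsph1, Hspa4 and Hspa4l) exchange its nucleotide. Hsp90 finishes the folding of kinases and of steroid receptors, including the glucocorticoid receptor. The small heat shock proteins (Hspb genes) keep damaged proteins from clumping, and the cytosolic chaperonin TRiC, a double ring of Cct subunits and Tcp1, folds actin and tubulin. When proteins unfold, the heat shock factor Hsf1 binds inverted GAA repeats in the promoters of the inducible genes and switches them on.

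The letters of such a repeat, GAANNTTC or TTCNNGAA, which read the same on both strands, were searched in the 250 bases before each start of transcription in RefSeq promoters of the mouse assembly GRCm38.p6. Promoters were found for 45 of the 54 tested genes, and 13 of these (28.9%) held a match, against 3932 of all 27025 genes in the table (14.5%). Matches stood in the promoters of Hsph1, Hspa1a and Hspb3, 3 of the 10 genes with a promoter that changed in at least 1 comparison below (30.0%), and in 10 of the other 35 (28.6%). The stretches that follow show the matches, in capitals, of these 3 genes, of the small heat shock gene Hspb1 and of the mitochondrial pair Hspe1 and Hspd1. Hspe1 and Hspd1 lie head to head and share the 3 overlapping matches.
Hsph1, chr5:149636337-149636409, minus strand: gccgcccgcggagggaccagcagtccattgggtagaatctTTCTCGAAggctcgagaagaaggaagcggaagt
Hspa1a, chr17:34972213-34972300, minus strand: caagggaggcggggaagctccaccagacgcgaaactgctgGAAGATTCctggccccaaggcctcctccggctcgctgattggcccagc
Hspb3, chr13:113663853-113663926, minus strand: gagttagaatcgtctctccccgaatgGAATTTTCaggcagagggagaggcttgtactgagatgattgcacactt
Hspb1, chr5:135887762-135887869, plus strand: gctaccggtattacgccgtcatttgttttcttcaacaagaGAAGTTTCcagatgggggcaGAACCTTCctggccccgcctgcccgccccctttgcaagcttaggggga
Hspe1, chr1:55088019-55088116, plus strand: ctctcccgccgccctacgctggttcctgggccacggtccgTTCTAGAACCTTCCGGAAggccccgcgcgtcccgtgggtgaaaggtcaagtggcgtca
A match is a run of letters and was not shown to be bound by a factor. The promoters of Hspa1a and its copy Hspa1b are identical at 296 of 300 bases (98.7%), and the coding sequences of this pair are known to be nearly identical too, so signal at the Hspa1a probe is uncertain between both genes.

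Log2 signals were compared after quantile normalization with limma, and a gene counts as called where its p was below 0.05 after Benjamini-Hochberg adjustment for the 8419 genes. Changes are log2 changes of the group named first over the group named second, with the standard error of the fit. The lowest log2 signal at which a probe was detected was 6.54 to 6.58 by array, so genes with signals near 7 stood close to the background and their changes are understated. All 4 control arrays and replicate 1 of each stressed group stand in the first 8 arrays of the deposited table, whose mean signals were 466 to 567. Replicates 2 and 3 of the stressed groups stand in the last 8, with 376 to 463. The summed signal of 4 excitatory neuron markers was 18335 to 20772 on the 16 arrays, and 4 striatal markers summed to 2368 to 3264. In tissue, fewer cells of a type and less RNA per cell cannot be told apart.

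Of the 54 genes, 11 (20.4%) were called in at least 1 of 12 comparisons, against 1441 of all 8419 genes (17.1%). The share is close to that of all genes. Their 18 called changes were between 0.16 and 0.44 in size on the log2 scale. They comprised 4 Hsp70 and Hsp110 genes of the Hspa family (Hspa1a, Hspa2, Hspa4 and Hspa4l), Hsph1, Hsp90aa1, Hspb3 and the J-domain genes Dnaja2, Dnajb2, Dnajc8 and Dnajc24. None of the 7 tested chaperonin genes was called by limma in any of the 12 (2 of 84 tests had an unadjusted p below 0.05), nor were Hspd1 and Hspe1 (1 of 24). Of all genes, 4.37% (resilient left against right) to 26.6% (defeated against control) had an unadjusted p below 0.05 in a single comparison.

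**Figure D1:**
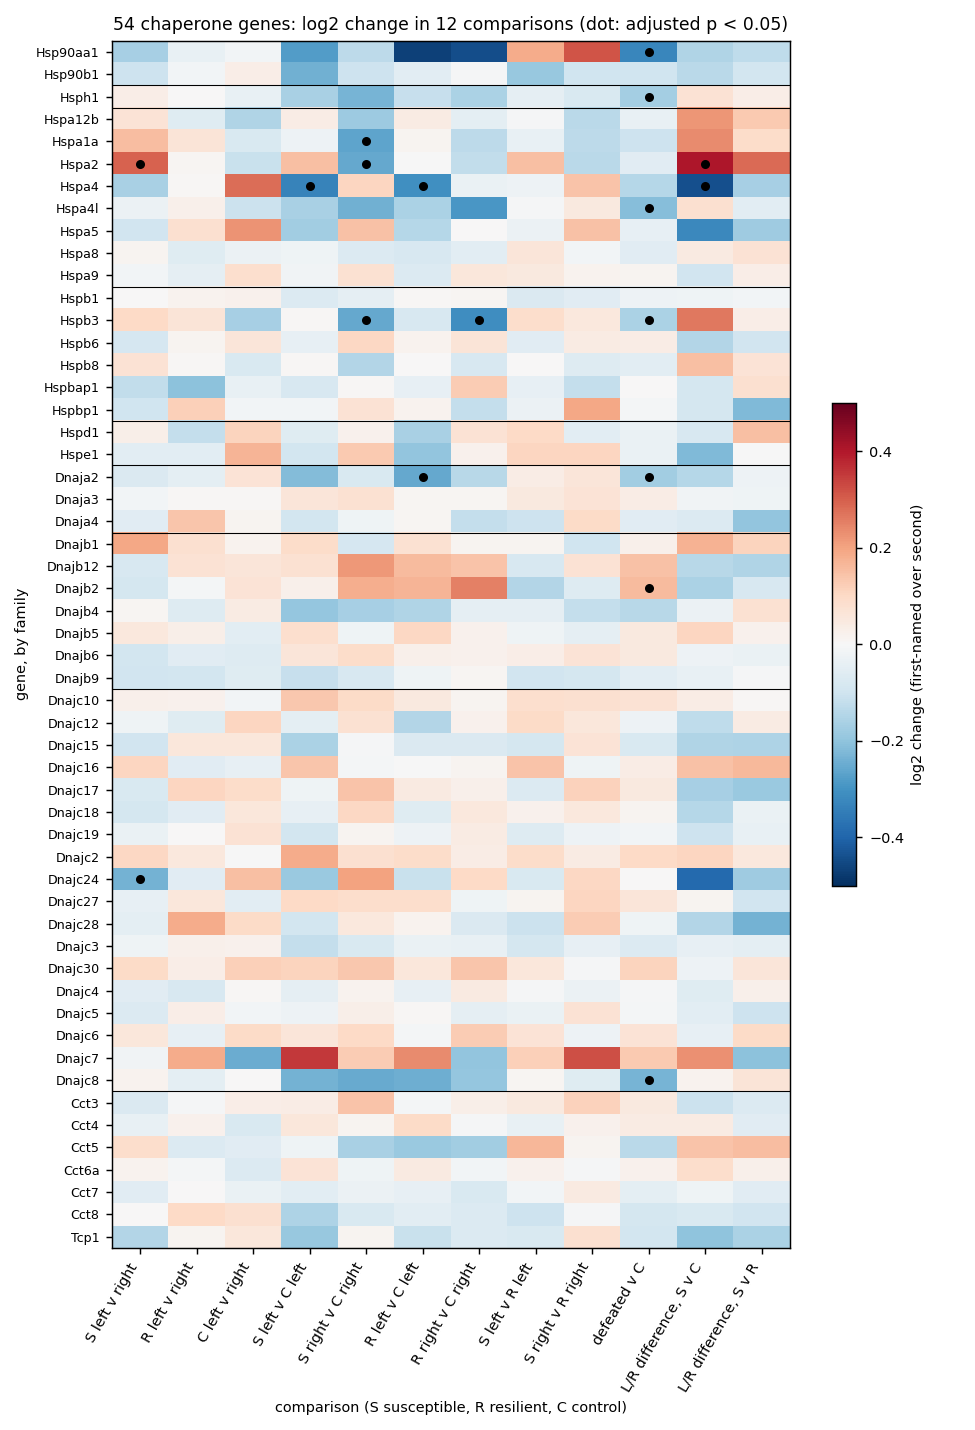
Log2 change of 54 chaperone genes (rows, by family) in 12 comparisons (columns), red for higher in the group named first and blue for lower; a dot marks an adjusted p below 0.05. The dots are scattered over the Hsp90, Hsph, Hspa, Hspb and Dnaj families, and the chaperonin rows at the bottom hold none.

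The broadest comparison set all defeated mice, susceptible and resilient, against control mice over both sides. Here 7 of the 54 genes were called (13.0%), 6 lower and 1 higher, against 11.2% of all genes (5.96% lower and 5.27% higher). Among the 6 lower genes were Hsp90aa1, the heat-inducible Hsp90, and both Hsph1 and Hspa4l of the Hsp110 class. The others were Dnaja2 and Dnajc8, J-domain genes, and Hspb3, a small heat shock protein best known from muscle. The gene that rose was Dnajb2, a J-domain protein of neurons that steers clients to the proteasome. The median change of the 54 genes was -0.024, beside 0.009 for all genes, and 32 of the 54 were below 0.

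Hsph1, the main Hsp110 of the cytosol and the first sequence printed above, had a log2 signal of 11.49 to 11.73 on the 12 defeated arrays (median 11.55), against 11.76 and 11.71 in control left and 11.71 and 11.83 in control right mPFC. All 4 control arrays stood at or above 11.71, a level that 1 of the defeated arrays passed. Hsph1 fell by 0.17 ± 0.048 (0.89-fold, adjusted p 0.0222). The change was spread over both groups, at -0.16 ± 0.075 in susceptible left, -0.23 ± 0.075 in susceptible right, -0.12 ± 0.075 in resilient left and -0.16 ± 0.075 in resilient right mPFC, each against control of the same side and none called singly. The call was lost without control left replicate 1 or 2 or control right replicate 2 (adjusted p 0.13, 0.0585 and 0.149).

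Hspa4l, a second Hsp110, had 7.19 to 7.42 on the defeated arrays (median 7.3), against 7.39 and 7.53 in control left and 7.47 and 7.66 in control right mPFC. It fell by 0.21 ± 0.052 (0.863-fold, adjusted p 0.0093), with 3 of the 4 control arrays above every defeated array. Without control left or right replicate 2 the adjusted p was 0.0872 and 0.107. On the first 8 arrays alone, a subset chosen after seeing the data, Hspa4l was still called (-0.19, adjusted p 0.0196), the only one of the 7 genes that was.

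Hsp90aa1 had the largest change of the 7 genes and also the widest scatter. Its log2 signal was 9.2, 8.43 and 8.72 in susceptible left, 9.14, 8.67 and 9.04 in susceptible right, 8.79, 8.56 and 8.45 in resilient left and 8.9, 8.52 and 8.5 in resilient right mPFC, against 9.02 and 9.11 in control left and 9.16 and 9.0 in control right. In each of the 4 stressed groups the array with the highest signal was replicate 1, the array that stands beside the controls in the table. Hsp90aa1 fell by 0.33 ± 0.096 (0.796-fold, adjusted p 0.0257). On the first 8 arrays alone the change was -0.065 (adjusted p 0.548), so nearly all of the drop lay on the last 8 arrays. The call was lost without any single control array (adjusted p 0.0602 to 0.148).

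Dnaja2, a general J-domain partner of Hsp70, was the 1 gene of the 54 whose defeated and control arrays did not overlap (1.85%), beside 2.61% of all genes. Its signal was 9.48 to 9.67 on the 12 defeated arrays (median 9.6), against 9.87 and 9.72 in control left and 9.69 and 9.77 in control right mPFC. It fell by 0.17 ± 0.045 (adjusted p 0.0135) and was not called without control left replicate 1 or control right replicate 2 (adjusted p 0.155 and 0.0935). The dimmer detected probe of Dnaja2 did not move in this way. It had 7.45 to 7.84 on the defeated arrays (median 7.65), against 7.79 and 7.66 in control left and 7.63 and 7.5 in control right mPFC, a change of -0.004 ± 0.058 (adjusted p 0.98 over the 11922 detected probes).

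Dnajc8, a nuclear J-domain protein linked to RNA splicing, had 7.18 to 7.79 on the defeated arrays (median 7.51), against 7.85 and 7.63 in control left and 7.87 and 7.61 in control right mPFC. Of the 12 defeated arrays, 10 lay below every control array, and the other 2, both in resilient right mPFC, lay among them. It fell by 0.23 ± 0.075 (adjusted p 0.0433), and the call was lost without any 1 of 9 arrays (adjusted p 0.0502 to 0.282). These were control left replicates 1 and 2, control right replicate 1, and replicates 2 and 3 of resilient left, susceptible left and susceptible right. On the first 8 arrays alone its change was -0.096.

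Hspb3 had 7.14 to 7.39 on the defeated arrays (median 7.24), against 7.35 and 7.3 in control left and 7.58 and 7.4 in control right mPFC, and fell by 0.16 ± 0.044 (adjusted p 0.0189). The right control arrays stood above all defeated arrays and the left ones among them. It was not called without control left replicate 1 or 2 or control right replicate 1 (adjusted p 0.113, 0.0533 and 0.182). Dnajb2 had 9.17 to 9.56 on the defeated arrays (median 9.29), against 9.27 and 9.1 in control left and 9.06 and 9.17 in control right mPFC. It rose by 0.16 ± 0.051 (adjusted p 0.045), but turned to -0.061 under scaling of the arrays to their median, and the call was lost without any 1 of 11 arrays (adjusted p 0.053 to 0.257). These were the 4 control arrays, resilient left replicates 2 and 3, resilient right replicate 3, and replicates 1 and 2 of both susceptible sides.

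Fewer of the 54 genes were called in defeated against control mice when a control array was left out. Leaving out control left replicate 1 or 2 gave 1 call each, and leaving out control right replicate 1 or 2 gave 4 and 2. Without control right replicate 1 the calls of Dnajb2, Dnajc8, Hsp90aa1 and Hspb3 were lost. The 4 calls made there thus included a gene outside the 7. With table position, first or last 8 arrays, entered as a block, 0 of the 54 genes were called by limma (6 at an unadjusted p below 0.05), though the changes of the 7 genes kept their direction. The changes with this block were -0.065 for Hsp90aa1 and -0.096 for Dnajc8, and between -0.11 and -0.19 for Dnaja2, Hspb3, Hsph1 and Hspa4l, with 0.11 for Dnajb2. As all control arrays are among the first 8, these equal the changes on the first 8 arrays alone. They rest on 1 array of each stressed group and are no separate check.

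**Figure D2:**
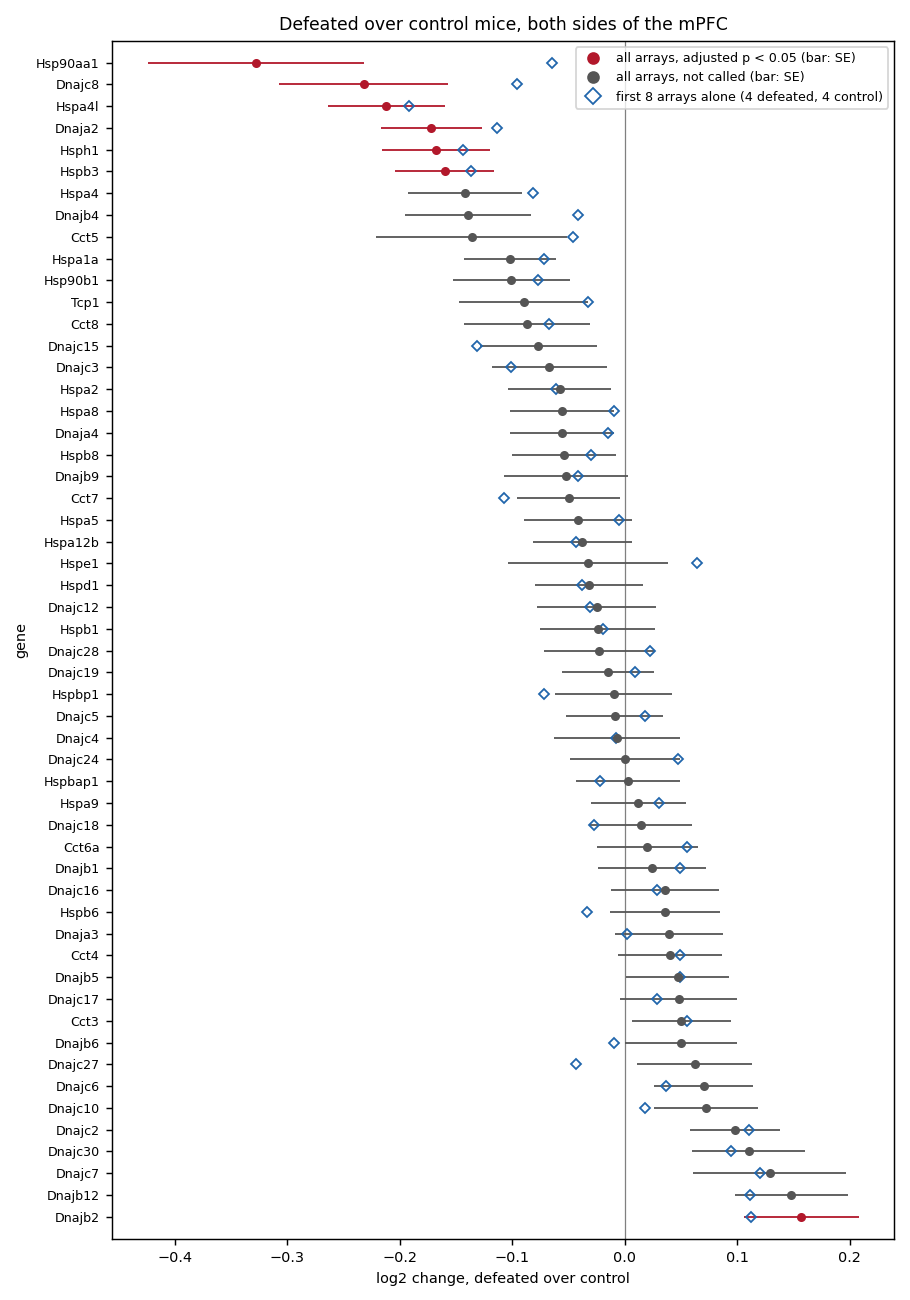
Log2 change of the 54 genes in defeated over control mice on all 16 arrays (filled circles, bars are SE, red for adjusted p below 0.05) and on the first 8 arrays alone (open diamonds). For Hsph1, Hspa4l and Hspb3 both values lie close together, and for Hsp90aa1 and Dnajc8 the first 8 arrays give a much smaller change.

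Measured against control within each side, the stressed groups gave few calls. In the right mPFC of susceptible mice 3 of 54 genes were called, all lower, against 4.88% of all genes. They were Hspa1a, the strongly stress-inducible Hsp70, Hspa2, an Hsp70 abundant in testis and also made in brain, and Hspb3. With table position as a block 0 of the 3 were called by limma (9 of the 54 genes at an unadjusted p below 0.05), although all kept their direction. Hspa1a had 7.32, 7.24 and 7.3 in susceptible right mPFC, against 7.5 and 7.6 in control right, and fell by 0.26 ± 0.065 (adjusted p 0.0174). All 3 susceptible right arrays lay below every other array of the study for this gene, the 3 susceptible left arrays at 7.45, 7.45 and 7.41 included. How many of all genes showed such a pattern was not counted. The resilient right arrays were 7.46, 7.45 and 7.33, the last just above the highest susceptible right array. Hspa1a was not called between these 2 groups. The Hspa1a call was lost without control right replicate 1 or 2 or susceptible right replicate 2 (adjusted p 0.0548, 0.254 and 0.0754), and with the block it was at -0.23 (adjusted p 0.0674).

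Hspa2 had 10.98, 10.99 and 11.03 in susceptible right mPFC, against 11.31 and 11.21 in control right, and fell by 0.26 ± 0.072 (adjusted p 0.0366). Hspb3 had 7.21, 7.21 and 7.27, against 7.58 and 7.4, and fell by 0.26 ± 0.07 (adjusted p 0.0302). For both genes the groups did not overlap, though 22 of the 54 genes (40.7%) and 35.9% of all genes had no overlap in this comparison of 3 arrays with 2. With the block Hspa2 was at -0.26 (adjusted p 0.0728) and Hspb3 at -0.23 (adjusted p 0.0974). Another, dimmer probe of Hspa2 was at -0.08 ± 0.079 here (adjusted p 0.649 over the detected probes). The Hspa2 call was lost without any 1 of the 5 arrays compared (adjusted p 0.0573 to 0.324), and that of Hspb3 without control right replicate 1 or susceptible right replicate 1 or 2 (adjusted p 0.408, 0.0722 and 0.0934). Without control right replicate 1 or susceptible right replicate 2 no gene of the 54 was called, and without control right replicate 2 or susceptible right replicate 1 a single one was.

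In the left mPFC of susceptible mice 1 gene was called against control, beside 4.24% of all genes. Hspa4 (Apg-2), the third Hsp110 gene, had 7.37, 7.1 and 7.18 in susceptible left mPFC, against 7.59 and 7.5 in control left. It fell by 0.33 ± 0.08 (0.794-fold, adjusted p 0.0151). In resilient left mPFC Hspa4 had 7.25, 7.21 and 7.26 and fell by 0.31 ± 0.08 against the same control arrays (adjusted p 0.0351). Both control left arrays lay above all 6 stressed left arrays. With each stressed group taken alone, a lack of overlap was common, at 37.7% of all genes in susceptible left and 33.7% in resilient left against control. The share for both groups together was not counted. In the right mPFC the Hspa4 change was 0.11 ± 0.08 in susceptible and -0.034 ± 0.08 in resilient mice, neither called. The susceptible call was lost without control left replicate 1 or 2 or susceptible left replicate 2 or 3 (adjusted p 0.246, 0.0639, 0.0932 and 0.0503). The resilient call was lost without control left replicate 1 or 2 or resilient left replicate 2 or 3 (adjusted p 0.382, 0.125, 0.109 and 0.084). With table position as a block Hspa4 was called in neither group, at -0.27 in susceptible (adjusted p 0.0767) and -0.25 in resilient mice (adjusted p 0.163). In susceptible left mPFC 4 genes were called without susceptible left replicate 1, and 2 without resilient right replicate 1 or 3.

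Resilient mice gave 2 calls on the left, Hspa4 and Dnaja2, against 2.7% of all genes, and 1 on the right, Hspb3, against 2.26%. Dnaja2 had 9.6, 9.51 and 9.51 in resilient left mPFC, against 9.87 and 9.72 in control left (-0.26 ± 0.071, adjusted p 0.0492). This call was lost without any 1 of 12 of the 16 arrays (adjusted p 0.0516 to 0.531), namely all but replicate 1 of both resilient sides and susceptible left replicates 1 and 3. It was lost with the block as well (-0.2, adjusted p 0.22), and the dimmer Dnaja2 probe was at -0.047 ± 0.092 (adjusted p 0.859 over the detected probes). Hspb3 had 7.23, 7.17 and 7.14 in resilient right mPFC, against 7.58 and 7.4 in control right. It fell by 0.31 ± 0.07 (adjusted p 0.0122), and without control right replicate 1 or resilient right replicate 3 the adjusted p was 0.302 and 0.0565. This call was kept with table position as a block (-0.29, adjusted p 0.0475). Hspb3 was thus lower than control on the right in both stressed groups, while on the left its change was 0.006 ± 0.07 in susceptible and -0.082 ± 0.07 in resilient mice. These comparisons share the control arrays of a side. The left-right difference of Hspb3 in susceptible against control mice was not called by limma, at an unadjusted p below 0.05. On the right 4 genes were called without resilient right replicate 1, and 2 without susceptible left replicate 3.

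Left and right mPFC of the same group were compared next. In susceptible mice 2 of 54 genes were called, against 5.21% of all genes, and they moved in opposite directions. Hspa2 was higher on the left, and Dnajc24, a J-domain protein needed for the diphthamide modification of elongation factor 2, was lower on the left. In resilient mice 0 of 54 were called by limma (3 at an unadjusted p below 0.05), against 0.0356% of all genes, and in control mice 0 (4 at an unadjusted p below 0.05), against 0.0119%. Of all genes, 4.37% in resilient and 4.99% in control mice had an unadjusted p below 0.05. The 3 genes of resilient mice were Dnaja4, Dnajc28 and Hspbap1. The 4 of control mice were Dnajc7, Hspa4, Hspa5 and Hspb3.

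Hspa2 had a log2 signal of 11.17, 11.37 and 11.34 in susceptible left mPFC, against 10.98, 10.99 and 11.03 in susceptible right. The lowest left array lay above the highest right array, a lack of overlap seen in 8 of the 54 genes (14.8%) and 20.1% of all genes. The left side was higher by 0.29 ± 0.064 (1.23-fold, adjusted p 0.00455), the smallest adjusted p of any of the 54 genes in any of the 12 comparisons. In resilient mice Hspa2 had 11.19, 11.14 and 11.1 on the left and 11.22, 11.16 and 11.03 on the right (0.009 ± 0.064). In control mice it had 11.15 and 11.14 on the left and 11.31 and 11.21 on the right (-0.11 ± 0.079). The call in susceptible mice was kept when any single array was left out. Scaling arrays to a common median gave 0.21 (adjusted p 0.982). On the last 8 arrays alone the value was 0.34 (adjusted p 0.0213), and on the first 8 alone, with 1 array per side, 0.20 (adjusted p 0.428).

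The other detected probe of Hspa2 was dimmer and was not called. It had 8.77, 8.91 and 8.83 in susceptible left and 8.61, 8.89 and 8.66 in susceptible right mPFC, a change of 0.11 ± 0.071 (adjusted p 0.484 over the 11922 detected probes). Its direction was that of the brighter probe and its left and right arrays overlapped.

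Dnajc24 had 7.7, 7.58 and 7.5 in susceptible left mPFC, against 7.8, 7.79 and 7.9 in susceptible right, a change of -0.24 ± 0.07 (adjusted p 0.0445) with no overlap, as for 8 of the 54 genes (14.8%) and 20.1% of all genes. In resilient mice its change was -0.058 ± 0.07 and in control mice 0.15 ± 0.085. The call rested on single arrays. It was lost without any 1 of 8 arrays (adjusted p 0.0536 to 0.21), among them susceptible left replicates 2 and 3 and all 3 susceptible right arrays, and also control left replicates 1 and 2 and resilient left replicate 2, which enter only through the common estimate of the spread.

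The left-right difference of susceptible mice was set directly against that of the other groups. Against control mice 2 genes were called, beside 2.63% of all genes. The left-right difference of Hspa2 was larger in susceptible than in control mice by 0.40 ± 0.102 (adjusted p 0.026), and that of Hspa4 was lower by 0.44 ± 0.113 (adjusted p 0.0309). At the dimmer Hspa2 probe the same difference was 0.18 ± 0.112 (adjusted p 0.583 over the detected probes). For Hspa4 the left-right difference was -0.16 ± 0.072 in susceptible and 0.28 ± 0.088 in control mice, neither called alone. Its right arrays were 7.44, 7.31 and 7.39 in susceptible and 7.15 and 7.39 in control mice. Dnajc24, at -0.39 ± 0.11, did not pass the threshold (adjusted p 0.058). Without control left replicate 1 or 2, control right replicate 1, susceptible left replicate 2 or 3 or susceptible right replicate 1, neither gene was called (adjusted p 0.0576 to 0.174 for Hspa2 and 0.0614 to 0.283 for Hspa4). Hspa4 alone was also lost without susceptible right replicate 3 (adjusted p 0.0593).

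Set against resilient mice, the left-right difference of susceptible mice gave 0 calls by limma among the 54 genes (4 at an unadjusted p below 0.05), beside 2.15% of all genes. Hspa2 came nearest, at 0.28 ± 0.091 (adjusted p 0.124), with its dimmer probe at 0 ± 0.1, and Hspa4 was at -0.17 ± 0.101 (adjusted p 0.558). Of all genes 12.2% had an unadjusted p below 0.05 in this comparison. Leaving out susceptible left replicate 1 gave 1 call.

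**Figure D3:**
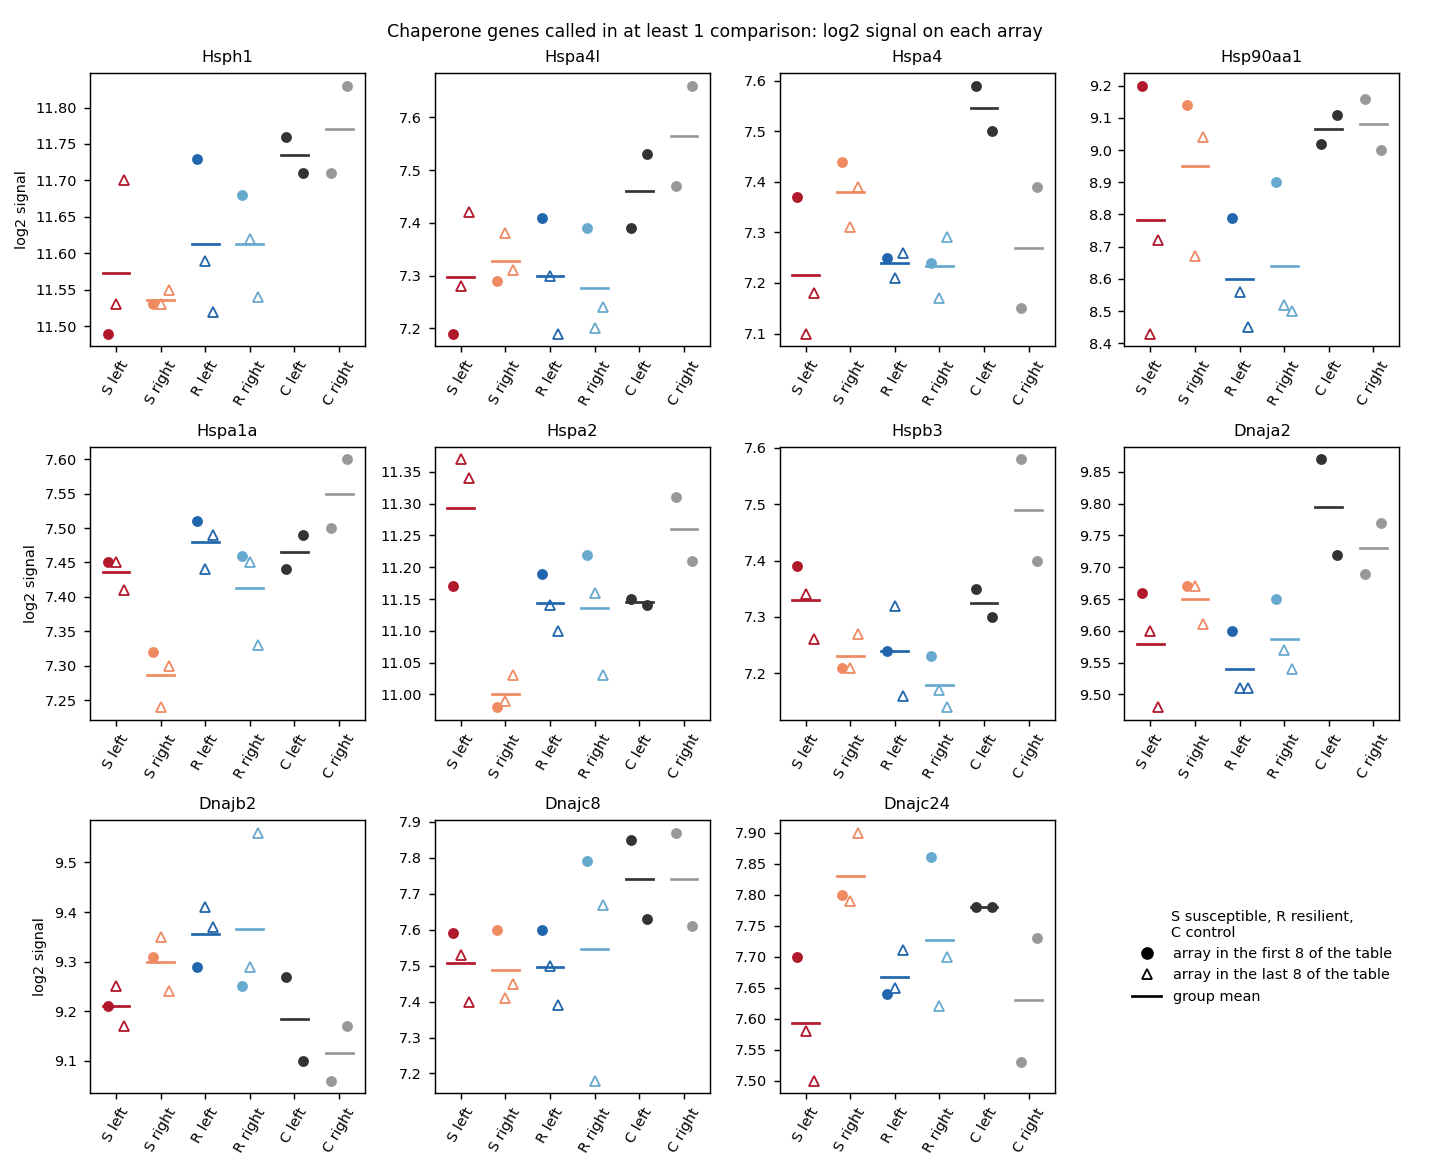
Log2 signal of the 11 called genes on each array, by group and side (S susceptible, R resilient, C control), with circles for arrays in the first 8 of the deposited table, triangles for the last 8 and lines for group means; each panel has its own axis. In susceptible mice the left Hspa2 arrays stand above the right ones, and in Hsp90aa1 the circles of the stressed groups stand above their triangles.

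Several tissue markers moved with these left-right values. In susceptible left against right mPFC, 11 of 11 oligodendrocyte markers were called lower (median -0.58), 4 of 6 layer 2/3 markers higher (median 0.74), 4 of 4 meningeal fibroblast markers higher (median 0.74), 5 of 8 layer 6 and 6b markers lower (median -0.37), 4 of 4 striatal markers lower (median -0.35), 3 of 4 blood markers higher (median 0.37) and 7 of 9 immediate early genes higher (median 0.29). The summed signal of the oligodendrocyte markers was 24853 to 25229 in susceptible left and 37199 to 37768 in susceptible right, 37505 to 39604 and 37034 to 38648 in resilient left and right, and 35230 to 35818 and 32187 to 32816 in control left and right mPFC. That of the layer 2/3 markers was 3140 to 3256 in susceptible left and 1919 to 2056 in susceptible right, against 2644 to 2676 and 2829 to 2849 in control left and right. In the right mPFC of susceptible mice against control, where Hspa1a, Hspa2 and Hspb3 were lower, 6 of 9 immediate early genes (median -0.40) and 4 of 6 layer 2/3 markers (median -0.56) were lower too, as were 4 of 4 meningeal markers (median -0.54), while 5 of 8 layer 6 and 6b markers (median 0.42), 5 of 11 oligodendrocyte markers (median 0.20) and 3 of 4 striatal markers (median 0.30) were higher. In the left-right difference of susceptible against control mice, 11 of 11 oligodendrocyte markers were lower (median -0.72) and 4 of 6 layer 2/3 markers (median 0.85) and 4 of 4 meningeal markers (median 0.90) higher. In defeated against control mice 6 of 9 immediate early genes (median -0.20), 4 of 8 interneuron markers (median -0.18), 2 of 6 layer 2/3 markers (median -0.14) and 2 of 7 astrocyte markers (median -0.12) were called lower. Higher there were 5 of 8 layer 6 and 6b markers (median 0.21), 3 of 4 striatal markers (median 0.24), 3 of 6 layer 5 markers (median 0.03) and 4 of 4 blood markers (median 0.30). All 8 interneuron and all 7 astrocyte markers were below 0. The summed signal of the interneuron markers was 26434 to 29433 on the defeated and 30673 to 32655 on the control arrays, and that of the blood markers 6871 to 10523 and 4721 to 5009. In susceptible left mPFC against control, where Hspa4 was lower, 11 of 11 oligodendrocyte markers were called lower (median -0.48). There 4 of 4 meningeal markers (median 0.42) and 3 of 4 blood markers (median 0.52) were called higher. In resilient left mPFC against control, where Hspa4 was lower too, 2 of 11 oligodendrocyte markers were called, both higher (median of the 11 0.19). The part of these markers in the values of the chaperone genes was not tested.

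Susceptible and resilient mice were also compared on each side. In the left mPFC 0 of the 54 genes were called by limma (3 at an unadjusted p below 0.05), beside 2.38% of all genes. In the right mPFC 0 were called (7 at an unadjusted p below 0.05), beside 0.831% of all genes. On each side 12.7% of all genes had an unadjusted p below 0.05. The largest change was that of Dnajc7, a J-domain protein that also binds Hsp90, which had 10.05, 10.16 and 10.23 in susceptible right and 10.08, 9.73 and 9.67 in resilient right mPFC (0.32 ± 0.096, adjusted p 0.117). Hsp90aa1 followed at 0.31 ± 0.135 (adjusted p 0.328). On the left, Hsp90b1, the Hsp90 of the endoplasmic reticulum (ER), was at -0.19 ± 0.073 (adjusted p 0.225). A gene was called without susceptible left replicate 2 on the left and without resilient right replicate 1 on the right, 1 in each.

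The heat-inducible genes were followed as a group, since they carry the best known Hsf1 targets. The list also holds Hspa8, which is made without heat. Of 12 on the array 10 were tested, and in defeated against control mice 3 of them were called lower (Hsph1, Hspa4l and Hsp90aa1), against 5.96% of all genes, and 0 higher. These 3 were among the 7 genes given above, and none was called with table position as a block. The list was chosen with earlier results of these data known, so its share is no separate support. The median was -0.079, and 9 of 10 were below 0, among them Hspa8, whose dimmer probe was called higher (0.19, adjusted p 0.0115 over the detected probes). Hspa8 alone made up 68.3 to 73.4% of the summed signal of the list. Without it the sum was 10184 to 11327 in susceptible left, 10136 to 10563 in susceptible right, 10252 to 10925 in resilient left and 9901 to 11125 in resilient right mPFC, against 11211 to 11416 in control left and 11001 to 11063 in control right. The ranges of the defeated and control arrays overlapped in part. The remaining 7 genes were not called there. Hspa4 was at -0.14 ± 0.051 (adjusted p 0.069) and Hspa1a at -0.1 ± 0.041 (adjusted p 0.11). Dnajb1, the inducible J-domain partner of Hspa1a, was at 0.024 ± 0.048, Hspb1, the small heat shock protein whose promoter is printed above, at -0.024 ± 0.051, Hspd1 at -0.032 ± 0.048 and Hspe1 at -0.033 ± 0.071. Dnajb1 came nearest to a call between left and right in susceptible mice, with 11.67, 11.5 and 11.51 on the left and 11.38, 11.33 and 11.37 on the right (0.19 ± 0.068, adjusted p 0.11).

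Hspa8, the constitutive Hsp70 of the cytosol, was read by a pair of probes that went opposite ways. The brighter probe, used for the gene, had 14.5 to 14.74 on the 12 defeated arrays (median 14.64), against 14.64 and 14.71 in control left and 14.67 and 14.74 in control right mPFC, a change of -0.056 ± 0.046 that was not called (adjusted p 0.459). The dimmer probe had 12.12 to 12.39 on the defeated arrays (median 12.22), against 12 and 11.93 in control left and 12.01 and 12.21 in control right. In a fit over all 11922 detected probes, where 11% were called, it was 0.19 ± 0.048 higher in defeated mice (adjusted p 0.0115), and it was 0.20 higher on the first 8 arrays alone. The study's own list of genes changed in stressed mice has Hspa8 as higher, the direction of the dimmer probe. Of the 13 genes with several detected probes, Hspa8 had the only second probe that was called in any comparison.

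**Figure D4:**
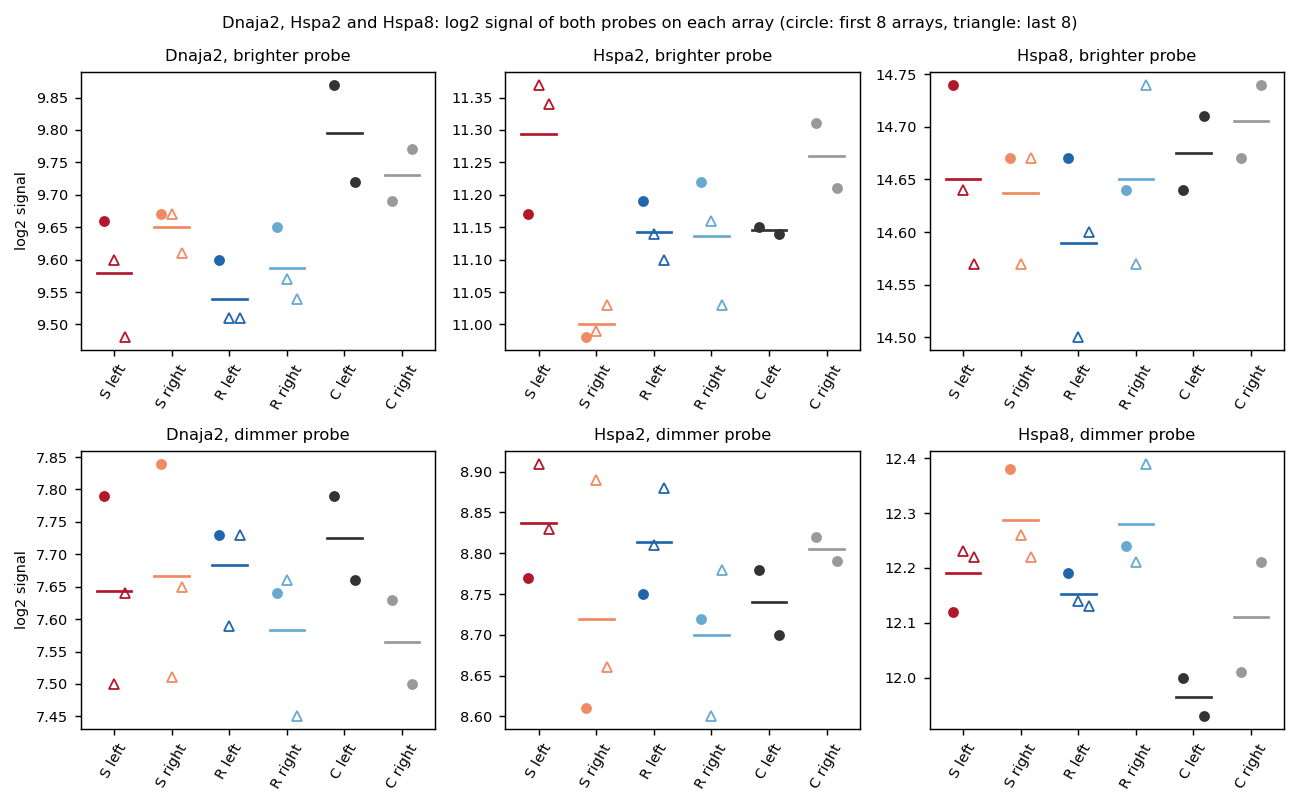
Log2 signal of the brighter (top) and dimmer (bottom) detected probe of Dnaja2, Hspa2 and Hspa8 on each array, by group and side (S susceptible, R resilient, C control), with circles for the first 8 arrays of the table, triangles for the last 8 and lines for group means. The dimmer Hspa8 probe is lowest on 3 of the 4 control arrays, while its brighter probe is not, and the brighter Dnaja2 probe is highest on the control arrays, while its dimmer probe is not.

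ER chaperones fold secreted and membrane proteins and are raised by the unfolded protein response. Of 7 on the array 5 were tested, and 0 were called by limma in any of the 12 comparisons (6 of 60 tests had an unadjusted p below 0.05). Of all genes 17.1% were called in at least 1. Hspa5 (BiP), the Hsp70 of the ER, had a signal close to background at its probe, 6.72 to 7.04 on the 12 defeated arrays, with 7.07 and 7.07 in control left and 6.94 and 6.75 in control right mPFC. Hsp90b1 had 12.19, 12.08 and 12.23 in susceptible left mPFC, against 12.41 and 12.4 in control left, and at -0.24 ± 0.082 came nearest to a call (adjusted p 0.0889). For Hspa5 the left-right difference of susceptible against control mice was -0.32 ± 0.108 (adjusted p 0.141). Dnajb9, which helps to clear misfolded ER proteins, was at -0.052 ± 0.055 in defeated against control mice, Dnajc3, which restrains the kinase PERK, at -0.067 ± 0.051, and Dnajc10, an ER disulfide reductase, at 0.072 ± 0.046.

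Mitochondrial chaperones receive imported proteins. None of the 8 tested was called by limma in any comparison (4 of 96 tests had an unadjusted p below 0.05), while 17.1% of all genes were called in at least 1. Hspa9 (mortalin), the Hsp70 of the matrix, was at 0.012 ± 0.042 in defeated against control mice, and Hspd1 and Hspe1, the partners of the mitochondrial chaperonin, stood near 0 as given above. The left-right difference was above 0 for 8 of 8 in control mice (median 0.089) and below 0 for 6 of 8 in susceptible mice (median -0.023), none of them called.

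In defeated against control mice the TRiC subunits lay on both sides of 0 and 0 of 7 were called by limma, or passed an unadjusted p of 0.05. Of all genes 11.2% were called there and 26.6% had an unadjusted p below 0.05. Tcp1 was at -0.09 ± 0.057, Cct3 at 0.05 ± 0.044, Cct4 at 0.04 ± 0.046, Cct6a at 0.02 ± 0.045, Cct7 at -0.05 ± 0.046 and Cct8 at -0.087 ± 0.056. Cct5 was at -0.14 ± 0.085 and scattered within groups, with 7.8, 7.35 and 8.15 in susceptible left mPFC alone. The largest change of any subunit in the 12 comparisons was that of Tcp1 in the left-right difference of susceptible against control mice, at -0.2 ± 0.127 (adjusted p 0.563). Cct2 was detected on 15 arrays and was not tested.

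J-domain proteins made up the largest family. Of 39 on the array 28 were tested, and Dnaja2, Dnajb2, Dnajc8 and Dnajc24 were called in at least 1 comparison, a share below the 17.1% of all genes. Dnajc5 (cysteine string protein), which keeps synaptic vesicle proteins folded, and Dnajc6 (auxilin), which strips clathrin from vesicles, were not called by limma in any comparison (0 of 24 tests had an unadjusted p below 0.05) and stood at -0.009 ± 0.043 and 0.07 ± 0.044 in defeated against control mice. Dnajb12, a J-domain protein of the ER membrane, came just short of a call in that comparison (0.15 ± 0.05, adjusted p 0.0552). Dnajc7 had the largest change of the family that was not a left-right difference, 0.35 ± 0.107 in susceptible left mPFC, with 10.01, 10.08 and 10.3 against 9.62 and 9.94 in control left, and it was not called (adjusted p 0.0579).

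The genes differed in how well the arrays could resolve a change. The pooled SD within groups had a median of 0.086 over the 54 genes, close to the 0.081 of all genes, and ran from 0.041 for Dnajc2 to 0.246 for Hsp90aa1. Hsp90aa1, Cct5, Dnajc8, Hspe1 and Dnajc7 lay above the 95th percentile of all genes. For these 5 genes only larger changes could be detected.

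Genes that act with the chaperones but lie outside the symbol rule were read from lists of partners. One list of 30 tested genes held mostly heat shock factors and co-chaperones of Hsp70 and Hsp90. Of these, 3 were called in defeated against control mice, all lower. Of all genes 11.2% were called there, 5.96% lower and 5.27% higher, and the difference between these shares was not tested. Hsf2, a heat shock factor that forms mixed trimers with Hsf1, had 7.41 to 7.93 on the defeated arrays (median 7.53), against 8.01 and 7.87 in control left and 7.9 and 7.9 in control right mPFC, and fell by 0.32 ± 0.062 (adjusted p 0.00117). It was also called lower in susceptible left (-0.45 ± 0.098) and resilient left (-0.4 ± 0.098) mPFC. No value for Hsf1 is given here. The study's own list of genes changed in stressed mice has Hsf1 as higher and Hsf2 as lower. Ptges3 (p23), the Hsp90 co-chaperone, had 9.28 to 9.54 on the defeated arrays. Control left had 9.68 and 9.6 and control right 9.62 and 9.64, with no overlap, as in 2.61% of all genes. Ptges3 fell by 0.24 ± 0.049 (adjusted p 0.00171). St13 (Hip), which holds Hsp70 on its client, fell by 0.19 ± 0.05 (adjusted p 0.0135). On the first 8 arrays alone these 3 changes were -0.25, -0.2 and -0.16. In susceptible right mPFC 2 genes of the list were called lower, where 4.88% of all genes were called. They were St13 at -0.27 ± 0.079 and Dedd2, neither a heat shock factor nor a co-chaperone, at -0.29 ± 0.081.

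Cryab (alpha B-crystallin) is a small heat shock protein under another name, abundant in oligodendrocytes. It had 8.73, 8.49 and 8.74 in susceptible left and 9.07, 9.36 and 9.11 in susceptible right mPFC, a change of -0.53 ± 0.093 (adjusted p 0.000418). It was also lower in susceptible left than in resilient left mPFC, which had 9.15, 9.3 and 8.96 (-0.48 ± 0.093, adjusted p 0.00206), and than in control left, which had 9.16 and 8.98 (-0.42 ± 0.104, adjusted p 0.0176). The oligodendrocyte markers given above moved the same way in susceptible left against right mPFC. In susceptible left mPFC 11 of 11 were also called lower against resilient left (median -0.66) and against control left (median -0.48). Among the small heat shock genes of the rule, Hspb1, Hspb3, Hspb6 and Hspb8 were tested and none was called between left and right (1 of the 12 tests, Hspb3 in control mice, had an unadjusted p below 0.05).

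In the remaining lists a few genes were called in defeated against control mice, where 11.2% of all genes were called. Pfdn2, a subunit of prefoldin, which hands actin and tubulin to TRiC, had 11.05 to 11.46 on the defeated arrays, against 10.83 and 11.01 in control left and 10.9 and 11.02 in control right mPFC, and rose by 0.29 ± 0.058 (adjusted p 0.00178). Pfdn2 and Tubb5, a tubulin folded by TRiC (0.15 ± 0.043), were the 2 called of 10 in that list. Of 17 tested genes of the ER stress response 2 were called, Syvn1, an ER ubiquitin ligase (0.16 ± 0.043), and its partner Sel1l (-0.2 ± 0.056), a share close to that of all genes. Of 8 mitochondrial co-chaperones and proteases Clpp was called in defeated mice (0.17 ± 0.047) and Clpx, its unfoldase partner, in susceptible left mPFC (-0.29 ± 0.077).

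A further 20 genes of the rule were not tested. The probes of 11 were detected on no array: Cct6b, Cct8l1, Dnajb7, Dnajb8, Dnajc1, Dnajc11, Dnajc5g, Dnajc9, Hspa13, Hspa1l and Hspb7. Another 6, Dnajb13, Dnajb3, Dnajc14, Dnajc5b, Hspa14 and Hspb2, were detected on 1 to 14 arrays, and Cct2, Dnaja1 and Hspa12a on 15. A probe that was not detected says only that its signal did not stand above background on these arrays.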

How the data were processed

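RNA of left and right mPFC was hybridized to 16 Illumina MouseRef-8 v2 arrays. Per the submitters' processing notes the arrays were read with GenomeStudio 1.0.6 and normalized with lumi, and limma was also used. For every probe and array the authors deposited a mean bead intensity (linear, 51.9 to 37310, no background subtracted), a detection score from 0 to 1, and normalized log2 values whose method is not given in the sources used here. Its difference from 1 served as detection p.

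Log2 signals were normalized between arrays by quantiles (limma 3.58.1, R 4.3.3). Of 25697 probes, 11922 had a detection p of 0.05 or less on all 16 arrays. The brightest such probe stood for each gene, which gave 8419 genes. A linear model of 6 groups was fitted with lmFit and eBayes, with 12 comparisons and Benjamini-Hochberg adjustment over the 8419 genes. Same-numbered left and right arrays were not fitted as pairs. The number of arrays limits the precision. Promoters came from RefSeq (GRCm38.p6). Python 3.11.15 with matplotlib 3.10.9 drew the figures. The procedure was run on simulated data with independent noise for each gene and no shift with table position. That run does not cover such a shift.

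The genes and lists were chosen with earlier results of these data known. Named were all called members, the member with the largest change in each family, all tested heat-inducible, ER and TRiC members, members whose probes disagreed, all untested members, and called genes of the partner lists. Dnajb12, Dnajc5, Dnajc6, Hspa9 and the genes listed at an unadjusted p were chosen after their values were seen. The alternatives were median scaling, cyclic loess, normexp background correction, the deposited normalized values, other detection limits, the mean over probes, other variance settings, array weights, blocks, fewer groups and leaving out each array. The first and last 8 arrays alone were added after seeing the data.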

Additional observations from a re-analysis of the deposited data

Results flagged for a closer look

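For 2 genes the left-right difference of susceptible mice differed from that of control mice in limma's test of the difference itself. The left-right difference of Hspa2 was 0.29 in susceptible and -0.11 in control mice, which differ by 0.40 (0.404, adjusted p 0.026). Its dimmer detected probe gave 0.18 for the same difference and was not called (adjusted p 0.583 over the 11922 detected probes). That of Hspa4 was -0.16 in susceptible and 0.28 in control mice, which differ by -0.44 (adjusted p 0.0309). Both rest on 2 control arrays per side, and each was lost without control left replicate 1 or 2 or control right replicate 1 (adjusted p 0.106, 0.109 and 0.174 for Hspa2, and 0.19, 0.0614 and 0.283 for Hspa4).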

How the results depend on the processing

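The counts of called genes were small and moved with most settings. The order below is susceptible left against right (2), susceptible left, susceptible right, resilient left and resilient right against control (1, 3, 2 and 1), defeated against control (7) and the left-right difference of susceptible against control mice (2). Median scaling gave 0, 0, 0, 0, 0, 14 and 0. The 14 were all lower and held 6 of the 7 genes, and the median of all genes shifted there by -0.158. Dnajb2 turned to -0.061, and the 6 lower genes were at -0.28 to -0.54. Cyclic loess gave 1, 1, 3, 2, 2, 7 and 2. The authors' normalized values gave 1, 1, 2, 1, 1, 5 and 1, normexp background correction 1, 1, 2, 0, 1, 3 and 0, and no filter 1, 1, 2, 1, 1, 6 and 2. Array weights gave 1, 4, 4, 3, 2, 9 and 3, and fitting only the groups compared 1, 2, 3, 2, 2, 7 and 3. Detection in 1 group gave 2, 1, 3, 1, 1, 7 and 2, and the mean over probes 2, 1, 2, 1, 1, 5 and 1. Blocking on table position (first or last 8 arrays) gave 2, 0, 0, 0, 1, 0 and 3. The cause of these moves was not tested. Leaving out 1 array gave 1 to 2, 0 to 4, 0 to 3, 0 to 3, 0 to 4, 1 to 8 and 0 to 3 calls. It gave 0 to 1 for susceptible against resilient mice on the left, on the right and in the left-right difference. In the other comparisons and settings 0 stayed 0.

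Deviations of same-numbered left and right arrays correlated at -0.02 to 0.34 over 8 pairs, 3 of them over 0.1, so the numbers were not shown to pair the arrays. Of the 8 pairs, 6 correlated best with their own number. With replicate number as a block shared by all groups, the 7 counts were 2, 1, 2, 2, 1, 6 and 2. Such a block does not set each left array against its own right array, so these counts do not test pairing. Among the stressed arrays the block also follows table position in part. There replicate 1 stands in the first 8 arrays and replicates 2 and 3 in the last 8. Of 522 settings of the 18 called changes, 373 kept the call, 148 lost it in the same direction and 1 reversed. Signals near the background, such as those of Hspa5, Hspb1, Hspb3 and Hspa4, limit what could be seen.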
